A study of Caenorhabditis elegans with 15 samples.

Results

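The expression of 7 genes of the lipid droplet and of fat storage was followed in aged Caenorhabditis elegans: plin-1, dhs-3, seip-1, dgat-2, atgl-1, lid-1 and hosl-1. They were chosen by name, for their roles in the coat of the droplet, in triglyceride synthesis and in lipolysis. Earlier results of these data were known when the choice was made. All 7 members were found among the 46906 genes of the expression table, 6 by name and 1 (seip-1) by its gene identifier, under which the table lists it as R01B10.6. All 7 were also among the 13743 genes that were expressed highly enough to be tested.

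Worms store fat as triglyceride in lipid droplets, mainly in the intestine and also in the hypodermis and the germline, and have no separate fat tissue. A droplet is a core of neutral lipid under a single layer of phospholipid, on which coat proteins sit. Acyltransferases of the endoplasmic reticulum join a fatty acid to diacylglycerol to make triglyceride, seipin shapes the sites where droplets bud from that membrane, and lipases on the droplet surface release the fatty acids again when the animal draws on its store.

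RNA came from whole wild-type N2 worms, many animals pooled in each tube, so every value is an average over all tissues. The first group was exposed to an extract of C. chinensis seeds at 30 µg/mL and the second to an extract of E. ulmoides bark at 30 µg/mL, both in 0.05% DMSO, and the third to 0.05% DMSO alone. All animals were kept on E. coli OP50 at 22 °C from the L4 larval stage to day 12 of adulthood, with carbenicillin and 100 µM FUdR, a compound that stops the production of offspring, and with 3000 to 4000 worms per tube. Each group had 5 libraries, which the labels number as biological replicates. Whether each came from a separately grown population is not said, so p-values measure the spread between these libraries.

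The libraries held 37963794 to 81833288 fragments with C. chinensis, 39567765 to 87238546 with E. ulmoides and 37920765 to 82839505 with DMSO, and 4 of the 15 exceeded 60000000. Expression is given as FPKM, a gene's fragments relative to its length and to the library's total, so that levels of different genes can be set side by side. For the fold changes, FPKM were also scaled between libraries by the bulk of genes (division by factors of 1.06 to 1.16 in the C. chinensis libraries, 0.873 to 0.914 with E. ulmoides and 0.942 to 1.03 with DMSO), and a linear model in limma was fitted to log2(scaled FPKM + 0.5) of all genes tested. FPKM are printed before this scaling, and their ratios therefore differ from the fitted folds. Over the 13743 genes, the log2 fold changes of C. chinensis against DMSO had a median of -0.09 with this scaling and of 0.06 without it. A gene was called when its Benjamini-Hochberg adjusted p was under 0.05 and its fold was above 1.5 in either direction.

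In the genome assembly WBcel235 all 7 are protein-coding genes. The coat gene plin-1 (W01A8.1) lies on chromosome I from 7057192 to 7059351 on the plus strand, dhs-3 (T02E1.5) on chromosome I from 8212362 to 8218324 on the minus strand, and lid-1 (C25A1.12) on chromosome I from 10191273 to 10192832 on the minus strand. The lipase gene atgl-1 (C05D11.7) lies on chromosome III from 6415772 to 6419459 on the minus strand, and hosl-1 (C46C11.1) on chromosome X from 4637121 to 4643695 on the plus strand. Chromosome V carries dgat-2 (F59A1.10), from 17660303 to 17661810 on the plus strand, and seip-1 (R01B10.6), from 6051377 to 6053238 on the minus strand. The exons of 5 of the 7 overlap no other gene's exons. The exons of dhs-3 share 49 bp (4.75% of their length) with the antisense gene T02E1.6, and those of dgat-2 share 57 bp (4.86%) with the antisense gene F59A1.11. The counting is not stated to use strand, and fragments from these short stretches cannot be told apart.

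With C. chinensis, 2 of the 7 genes were called higher than with DMSO, dhs-3 and dgat-2, and none was called lower. Among all genes tested, 16.9% were called higher and 3.47% lower, 20.4% in all. By the adjusted p alone 5 of 7 differed, plin-1, dhs-3 and dgat-2 upwards and atgl-1 and seip-1 downwards, a share of 71.4% beside 67.3% of all genes (30.2% upwards and 37.2% downwards). The median log2 fold change of the 7 was -0.01, and the genes spread to both sides of it, from -0.47 for atgl-1 to 0.71 for dhs-3. In libraries of whole worms, fewer cells of a type and less RNA per cell cannot be told apart.

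**Figure D1:**
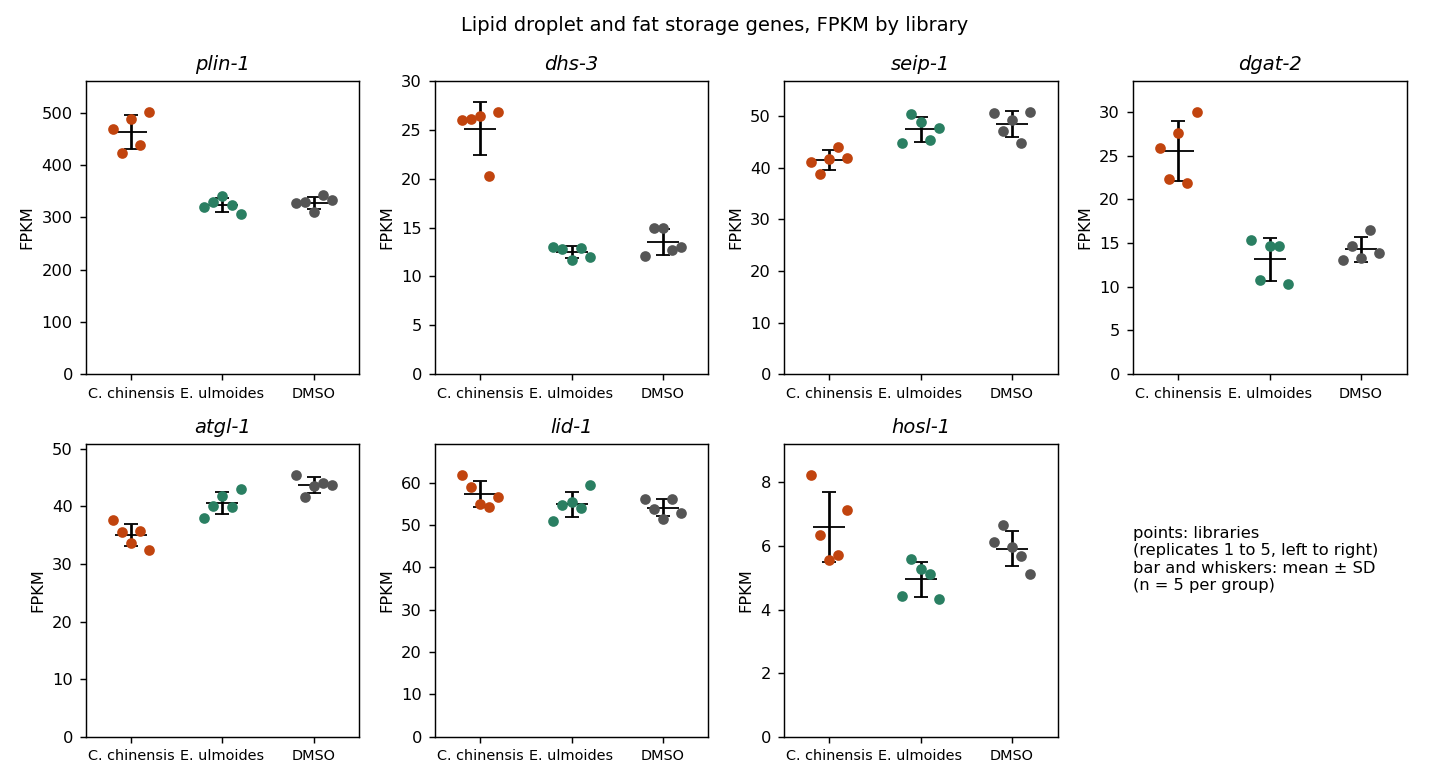
FPKM of each gene (vertical axes, starting at 0) in the 15 libraries of the 3 groups; each point is a library, replicates 1 to 5 from left to right, and bars and whiskers are the mean and SD of 5 libraries. The C. chinensis libraries lie above all DMSO libraries for plin-1, dhs-3 and dgat-2, and below all of them for atgl-1 and seip-1.

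The coat of the droplet held the most abundant transcript of the set. Perilipin, encoded by plin-1, sits on the droplet surface, where in mammals proteins of this family control the access of lipases. Its level was 468, 423, 488, 438 and 501 FPKM in the C. chinensis libraries (replicates 1 to 5), 319, 329, 341, 323 and 306 FPKM in the E. ulmoides libraries, and 327, 329, 311, 342 and 332 FPKM in the DMSO libraries. Every C. chinensis library was above every library of both other groups, which overlapped one another. In DMSO worms plin-1 stood at percentile 97.9 of all genes tested by its level. The fitted log2 fold change of C. chinensis against DMSO was 0.34 (95% interval 0.22 to 0.45, adjusted p = 3.8e-05 from limma), a fold of 1.26 that stays under the fold limit. The exact two-sided permutation test of plin-1 alone gave 0.0079, which is its smallest possible p for 5 libraries against 5.

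The short-chain dehydrogenase DHS-3 is an abundant droplet protein of the worm intestine and is used as a marker of intestinal droplets. Its transcript had 25.97, 26.1, 26.5, 20.3 and 26.8 FPKM with C. chinensis, 13.1, 12.8, 11.7, 12.9 and 12.0 FPKM with E. ulmoides, and 12.1, 14.96, 14.98, 12.7 and 13.02 FPKM with DMSO. Replicate 4 of C. chinensis was below the other 4 libraries of its group, yet above all libraries of the other groups. The log2 fold change against DMSO was 0.71 (95% interval 0.55 to 0.86, adjusted p = 7.8e-07 from limma), a fold of 1.64, and 0.75 without that replicate. It was the largest change among the 7, at percentile 87.4 of all genes tested. Its antisense neighbour T02E1.6, with which it shares the short stretch named above, had a median of 31.2 FPKM with C. chinensis and 38.4 FPKM with DMSO (log2 fold change -0.42, adjusted p = 0.00137 from limma).

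Seipin, encoded by seip-1, sits in the endoplasmic reticulum where droplets form and grow. Its level was 41.2, 38.7, 41.6, 44.1 and 41.9 FPKM with C. chinensis, 44.8, 50.3, 48.9, 45.4 and 47.6 FPKM with E. ulmoides, and 50.6, 47.1, 49.3, 44.7 and 50.7 FPKM with DMSO. The C. chinensis libraries lay below those of both other groups, the highest of them by a narrow margin. Against DMSO the log2 fold change was -0.38 (95% interval -0.51 to -0.24, adjusted p = 6.8e-05 from limma), within the fold limit. Its size depended on the scaling: it was -0.22 without scaling beyond FPKM (adjusted p = 0.0014) and -0.20 with quantile normalization (adjusted p = 0.0041).

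A diacylglycerol acyltransferase, an enzyme that completes triglyceride, is encoded by dgat-2. This gene had 25.9, 22.4, 27.6, 21.9 and 29.9 FPKM with C. chinensis, 15.3, 10.7, 14.6, 14.7 and 10.3 FPKM with E. ulmoides, and 13.1, 14.7, 13.2, 16.5 and 13.9 FPKM with DMSO. The C. chinensis libraries were all above the highest library of the other groups, and the E. ulmoides libraries spread more widely than those of DMSO, with replicates 2 and 5 lowest. The log2 fold change of C. chinensis against DMSO was 0.66 (95% interval 0.43 to 0.89, adjusted p = 6.2e-05 from limma), a fold of 1.58, and the exact permutation p was 0.0079. Its antisense neighbour F59A1.11 was nearly silent, with 0 to 21 fragments per library beside 497 to 2102 for dgat-2.

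Lipolysis starts with the adipose triglyceride lipase ATGL-1, which removes the first fatty acid from triglyceride. The level of atgl-1 was 37.6, 35.6, 33.7, 35.7 and 32.5 FPKM with C. chinensis, 38.05, 40.0, 41.8, 39.9 and 43.0 FPKM with E. ulmoides, and 45.4, 41.6, 43.5, 44.0 and 43.8 FPKM with DMSO. Every C. chinensis library was below every library of the other groups. The log2 fold change against DMSO was -0.47 (95% interval -0.61 to -0.34, adjusted p = 9.6e-06 from limma), the lowest of the 7 and at percentile 10.1 of all genes tested. The fold of 0.721 is within the fold limit, and the change was -0.32 both without scaling beyond FPKM and with quantile normalization. The exact permutation p was 0.0079.

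LID-1, the worm relative of the mammalian co-activator CGI-58, binds ATGL-1 at the droplet. Its transcript was close to equal in the 3 groups, with 61.8, 58.9, 55.1, 54.3 and 56.6 FPKM with C. chinensis, 51.1, 54.8, 55.4, 53.95 and 59.4 FPKM with E. ulmoides, and 56.2, 53.9, 51.5, 56.1 and 52.8 FPKM with DMSO. All 3 groups overlapped in these FPKM. After scaling, the C. chinensis libraries (47.5 to 54.7) lay below those of E. ulmoides (55.9 to 68.0). The log2 fold change of C. chinensis against DMSO was -0.08 (95% interval -0.21 to 0.05, adjusted p = 0.29 from limma), against a median of -0.09 over all genes, and its sign turned without scaling (0.08, adjusted p = 0.17) and with quantile normalization (0.14, adjusted p = 0.015). Over its 28 alternatives the adjusted p of lid-1 ran between 0.015 and 0.72.

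The gene hosl-1 encodes hormone-sensitive lipase, which in mammals cleaves the diacylglycerol that the first lipase leaves. In these worms it was the least abundant of the 7, with 8.22, 6.33, 5.55, 5.71 and 7.12 FPKM with C. chinensis, 4.43, 5.59, 5.27, 5.13 and 4.34 FPKM with E. ulmoides, and 6.11, 6.65, 5.97, 5.69 and 5.13 FPKM with DMSO. C. chinensis replicate 1 was the highest of all 15 libraries, and the groups overlapped. The log2 fold change of C. chinensis against DMSO was -0.01 (95% interval -0.23 to 0.20, adjusted p = 0.93 from limma), and its sign turned with the scaling. It had 643 to 1827 fragments per library, and the SD over libraries reached 16.8% of the mean with C. chinensis, the widest of any group for hosl-1.

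**Figure D2:**
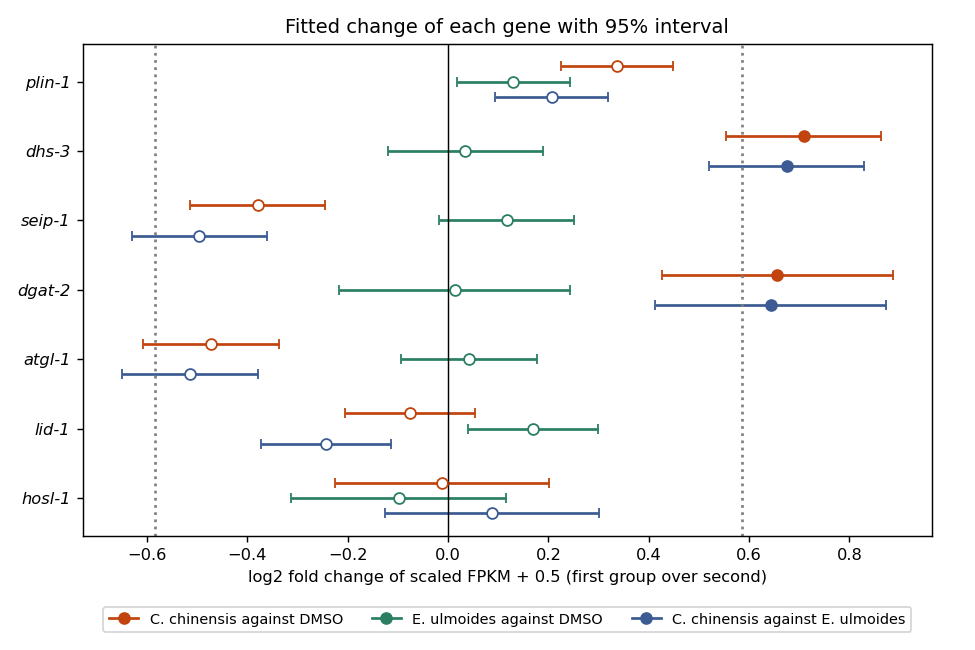
Fitted log2 fold change of each gene (horizontal axis, scaled FPKM + 0.5) in the 3 comparisons, first group over second, with 95% intervals over all 15 libraries; filled points are called, and dotted lines mark the fold limit of 1.5. Only dhs-3 and dgat-2 have filled points, in both comparisons of C. chinensis, and the E. ulmoides points lie between -0.10 and 0.17.

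Levels of the 7 spanned a wide range, and their order can be read on the FPKM scale, which is per length. In DMSO worms plin-1 was highest, followed by lid-1, seip-1 and atgl-1, then dgat-2 and dhs-3, and hosl-1 was lowest. The libraries of seip-1 and atgl-1 overlapped there, as did those of dgat-2 and dhs-3, so the order within each of these pairs is not resolved. The length behind the FPKM of seip-1 was 1126 bp, while its exons cover 989 bp in Ensembl. For lid-1 these were 1322 and 1324 bp, so the order of lid-1 and seip-1 depends on the length used and is not resolved either. In C. chinensis worms seip-1 and atgl-1 no longer overlapped (38.7 to 44.1 against 32.5 to 37.6 FPKM), while dgat-2 and dhs-3 still did.

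With E. ulmoides extract all 7 genes stayed close to DMSO. In limma, 0 of 7 were called against DMSO, beside 1.22% of all genes tested, and 0 of 7 passed the adjusted p alone, beside 5.01%. At an unadjusted p under 0.05 there were 2 of 7, plin-1 and lid-1, or 28.6% beside 23.3% of all genes. None was called in any of the 29 alternatives, voom on recovered fragments included. The exact Wilcoxon test could call no gene in this comparison, its lowest adjusted p over all genes being 0.089. Its 0 of 7 was therefore fixed in advance, and several other alternatives called few genes at all. The largest log2 fold change was that of lid-1, 0.17 (95% interval 0.04 to 0.30, adjusted p = 0.11 from limma), then plin-1 with 0.13 (0.02 to 0.24, adjusted p = 0.15). The exact permutation p was 0.024 for both. The lowest was that of hosl-1, -0.10 (-0.31 to 0.11, adjusted p = 0.59). For dhs-3, dgat-2 and atgl-1 the values were 0.03, 0.01 and 0.04, and the sign of each turned in several alternatives. Over the 7 genes, the 95% intervals of the fold ran from 0.805 to 1.23, so a change of 1.5-fold lies outside all of them. The 5 DMSO libraries serve both comparisons with DMSO.

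Set directly against each other, the extracts differed in the same 2 genes by the call. With C. chinensis, dhs-3 was higher than with E. ulmoides by a log2 fold change of 0.67 (95% interval 0.52 to 0.83, adjusted p = 9.4e-07 from limma), and dgat-2 by 0.64 (0.41 to 0.87, adjusted p = 5.9e-05). Of all genes tested, 13.2% were called higher and 9.51% lower in this comparison, 22.7% in all. By the adjusted p alone 6 of 7 differed, or 85.7% beside 67.2% of all genes. The 4 others were plin-1 at 0.21 (adjusted p = 0.0024), atgl-1 at -0.51 (3e-06), seip-1 at -0.50 (3.8e-06) and lid-1 at -0.24 (0.002). The gene that passed neither rule was hosl-1, at 0.09 (95% interval -0.13 to 0.30, adjusted p = 0.46). Without E. ulmoides replicate 2 or 5, the pair with the lowest dgat-2, its change was 0.58 or 0.57 and fell just inside the fold limit, so 1 gene was called in place of 2. Without scaling beyond FPKM the median of all genes in this comparison moved to 0.23 from -0.05, and with it lid-1 turned to 0.06, plin-1 stood at 0.51, atgl-1 at -0.21 and seip-1 at -0.19. Relative to the median of all genes, these 4 were at -0.16, 0.29, -0.43 and -0.42 without scaling, and at -0.19, 0.26, -0.46 and -0.44 with it. With quantile normalization they were at 0.15, 0.49, -0.19 and -0.14 relative to that median, so that the sign of lid-1 turned and the sizes of the others moved.

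The overlap of groups was also counted on the FPKM scale. Between C. chinensis and DMSO the libraries of 5 of 7 genes did not overlap, while 44.2% of all genes tested did not. Between E. ulmoides and DMSO it was 0 of 7, with 7.71% of all genes. Between the extracts it was again 5 of 7, with 46.5% of all genes.

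Ratios of these genes within a library do not depend on the scaling between libraries. They are given as a description, with no test. The ratio of dgat-2 to atgl-1 sets a gene of synthesis over a gene of breakdown, and does not measure either step as a whole. It was 0.613 to 0.921 with C. chinensis (median 0.689), 0.239 to 0.403 with E. ulmoides (median 0.350) and 0.288 to 0.376 with DMSO (median 0.317). All C. chinensis libraries were above the range of the others, which follows from the separate levels of dgat-2 and atgl-1 given above. The ratio of plin-1 to atgl-1 was 11.9 to 15.4 with C. chinensis (median 12.5), 7.12 to 8.40 with E. ulmoides (median 8.15) and 7.14 to 7.90 with DMSO (median 7.59). That C. chinensis stood apart here follows from the levels of plin-1 and atgl-1 in the same way. For lid-1 over atgl-1, co-activator over lipase, the 3 groups separated: 1.52 to 1.74 with C. chinensis, 1.32 to 1.38 with E. ulmoides and 1.19 to 1.30 with DMSO. Every other ratio computed, plin-1 over seip-1 and hosl-1 over atgl-1 included, overlapped between E. ulmoides and DMSO. Neither lid-1 (0.11) nor atgl-1 (0.73) passed the adjusted p of limma there. How often other gene pairs separate in this way was not counted. Within the coat, dhs-3 over plin-1 was 0.0464 to 0.0617 with C. chinensis, 0.0342 to 0.0409 with E. ulmoides and 0.0369 to 0.0482 with DMSO, so that C. chinensis and DMSO overlapped.

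**Figure D3:**
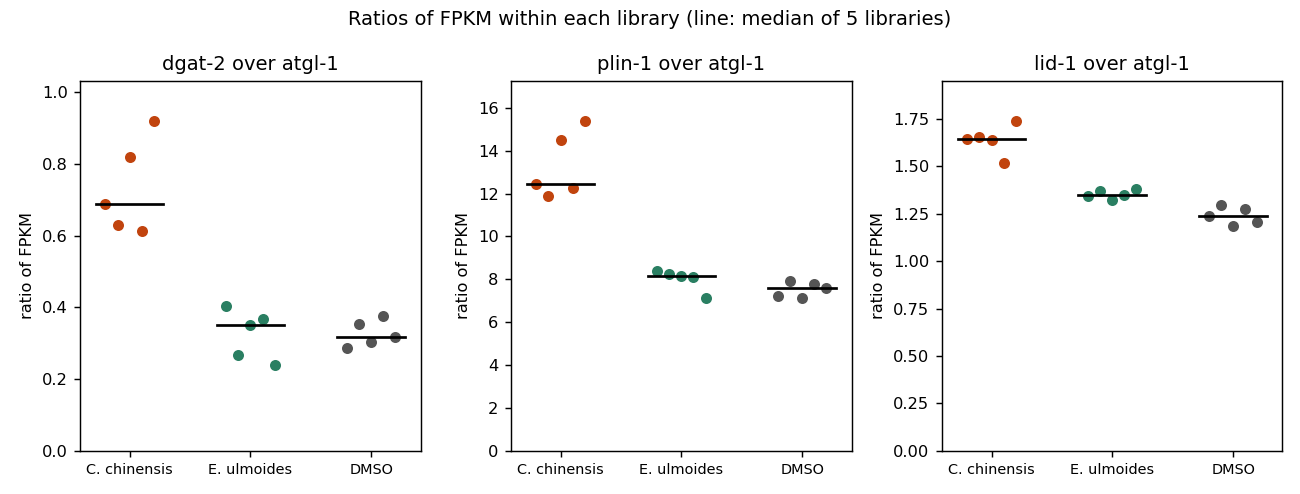
Ratio of FPKM of the named genes within each library (vertical axes, starting at 0) for dgat-2 over atgl-1, plin-1 over atgl-1 and lid-1 over atgl-1; points are libraries and lines are medians of 5. The C. chinensis libraries are above all others in the 3 plots, with medians of 0.689, 12.5 and 1.64 beside 0.317, 7.59 and 1.24 with DMSO.

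The genes also differed in how they varied together over the 15 libraries, which share their groups, so correlations mostly restate the group differences. On scaled log2 values, atgl-1 and seip-1 had a Pearson r of 0.94, dhs-3 and atgl-1 -0.95, and dhs-3 and dgat-2 0.85. After each group's mean was removed, these were 0.57, -0.52 and 0.08. The highest r within groups among the 21 pairs was that of atgl-1 and lid-1, the lipase and its partner, at 0.84, beside 0.76 over all libraries. For plin-1 with dhs-3, both of the coat, r was 0.79 over all libraries and -0.24 within groups.

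Among all other genes tested, those most like each member in profile over the 15 libraries were found by the same r. For plin-1 they were vha-15 (0.97), apy-1 (0.96) and cyp-13B1 (0.95), and for dhs-3 pkg-2 (0.98), nhr-121 (0.98) and bli-3 (0.97). For dgat-2 they were C52B11.5 (0.97), grl-9 (0.96) and F07C6.2 (0.96). Of these 9, grl-9 was near the filter limit, with a mean of 1.23 FPKM with C. chinensis, 0.352 with E. ulmoides and 0.333 with DMSO. All 9 were higher with C. chinensis than with DMSO by their fitted change, a direction largely set by their choice through r. For atgl-1 they were cyk-3, T28A8.3 and hcp-1 (0.99 each), and for seip-1 szy-2, sgo-1 and tbcc-1 (0.98 each), all lower with C. chinensis. Their direction too was largely set by the choice. The closest to lid-1 were atfs-1 (0.94), tag-266 (0.93) and R05F9.6 (0.93), and the closest to hosl-1, at a lower r, were sop-2 (0.87), Y50C1A.2 (0.87) and Y75B8A.19 (0.86).

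Other genes of the same pathways were read from lists. Of 11 genes of triglyceride synthesis upstream of and beside DGAT-2, 2 were called higher with C. chinensis than with DMSO and none lower. The shares of all genes tested were 16.9% and 3.47%, and the list median was -0.03. By the adjusted p alone 3 of the 11 were higher and 3 lower. Between the extracts 4 were higher with C. chinensis and 7 lower by that rule. The fatty acid transport protein gene acs-22, whose product works together with DGAT-2 on droplets, had 37.3 ± 4.43 FPKM with C. chinensis, 17.95 ± 1.96 with E. ulmoides and 19.2 ± 0.701 with DMSO (SD, n = 5 each), a log2 fold change against DMSO of 0.77 (limma adjusted p = 5.5e-07). The glycerol-3-phosphate dehydrogenase gene gpdh-1 is better known for its part in osmotic stress. It had 2.94 ± 0.909 FPKM with C. chinensis and 0.763 ± 0.356 with DMSO (1.32, limma adjusted p = 3.8e-05). Its level was near the filter limit of 1 FPKM, which all C. chinensis libraries passed, with 0.366 to 1.25 FPKM in the DMSO libraries. The far more abundant gpdh-2 of this list had 96.3 ± 4.50 and 88.3 ± 4.23 FPKM (-0.03, limma adjusted p = 0.57). For mboa-2 these were 20.0 ± 1.65 and 18.3 ± 1.09 FPKM (-0.03, limma adjusted p = 0.7). The acyltransferase gene acl-6 had -0.47 against DMSO, inside the fold limit, and was called lower against E. ulmoides (-0.60), a call that held in 13 of 28 alternatives. With E. ulmoides none of the 11 was called or passed the adjusted p in limma against DMSO.

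Of 7 genes listed for droplet growth and the coat, 2 were called higher with C. chinensis, beside 16.9% of all genes tested. The list median was 0.11, and by the adjusted p alone 3 were higher and 1 lower. The dehydrogenase gene dhs-19, whose product is a droplet protein like DHS-3, had a log2 fold change of 0.61 (limma adjusted p = 3.9e-06), close to the fold limit, and kept its call in 24 of 28 alternatives, the exceptions being no filter (0.58) and leaving out C. chinensis replicate 1 (0.57) or 5 (0.57) or DMSO replicate 3 (0.57). The gene cept-1, for a phosphotransferase that makes membrane phospholipids, had 0.89 (limma adjusted p = 9.9e-06). Another gene of this list, mdt-28, is separate from the perilipin gene plin-1 (W01A8.1). No value here ties it to droplets, and it is not read as a droplet gene. The level of mdt-28 was 113 ± 6.64 FPKM with C. chinensis, 146 ± 4.44 with E. ulmoides and 149 ± 13.4 with DMSO. Its change was -0.55 against DMSO (limma adjusted p = 7.9e-06), inside the fold limit, and -0.68 against E. ulmoides, which was called, though not without scaling (-0.37), with quantile normalization (-0.35), with a mean FPKM of at least 5 (-0.44) or without C. chinensis replicate 5 (-0.58). The change against DMSO was called in 5 of 28 alternatives. Thus by the adjusted p the droplet protein genes plin-1, dhs-3 and dhs-19 were higher with C. chinensis. The lower value of mdt-28 is not counted as a change of the coat.

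A list of other lipases held 19 genes measured, abhd-5.2 included although it is not a lips or fil gene. Of these, 9 passed the filter on low values. With C. chinensis 4 of these 9 were called higher, beside 16.9% of all genes tested. Where a mean FPKM of at least 5 was asked, 2 were called. The lipase-like gene lips-10 had 29.1 ± 3.70 FPKM with C. chinensis, 11.7 ± 2.06 with E. ulmoides and 8.30 ± 1.89 with DMSO. Its log2 fold change against DMSO was 1.61 with C. chinensis (limma adjusted p = 2e-07) and 0.62 with E. ulmoides (limma adjusted p = 0.021), the only call with E. ulmoides in the pathway lists. That call held in 10 of 28 alternatives, over which its log2 fold change ran between 0.30 and 0.71 and its adjusted p between 0.018 and 0.49, and it ended without E. ulmoides replicate 1 or 4, without DMSO replicate 1 or 3, or without C. chinensis replicate 2, 3, 4 or 5. The others were lips-16 (1.04), lips-15 (0.93) and lips-13 (0.91). A gene that passes the filter through its C. chinensis libraries alone had to differ, so the count of 9 is no measure of the family.

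Lipases on the droplet are controlled by protein kinase A and by the AMP-activated kinase. The list held 8 genes of these kinases and of their regulators, gsa-1 and par-4 included. Of these 8, 3 were called higher with C. chinensis, beside 16.9% of all genes tested, with a list median of 0.51. Without scaling beyond FPKM, or with a mean FPKM of at least 5, 5 were called higher. By the adjusted p alone 5 were higher and 2 lower. The 3 called were the catalytic and regulatory subunits of protein kinase A, kin-1 (0.71, limma adjusted p = 4.3e-07) and kin-2 (0.69, limma adjusted p = 8.1e-07), and the beta subunit of the AMP-activated kinase, aakb-1 (0.91, limma adjusted p = 7.7e-07). The 2 catalytic subunits of the AMP-activated kinase went opposite ways, both inside the fold limit. For aak-2 the log2 fold change was 0.53 (limma adjusted p = 1.2e-05) and for aak-1 it was -0.51 (limma adjusted p = 5.9e-05), and aak-1 passed the limit without C. chinensis replicate 4 (-0.59) and without the libraries of over 60000000 fragments (-0.61). With E. ulmoides none of the 8 was called or passed the adjusted p in limma.

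Yolk lipoproteins carry fat from the intestine to the oocytes. Of 8 genes of yolk assembly and uptake 6 were tested and 5 were called higher with C. chinensis, beside 16.9% of all genes tested. The list median was 1.53. The yolk protein gene vit-6 had 557 ± 136 FPKM with C. chinensis, 140 ± 34.4 with E. ulmoides and 120 ± 44.6 with DMSO, a log2 fold change against DMSO of 2.11 (limma adjusted p = 1e-06). For vit-5 and vit-2 it was 2.30 and 1.75, although near copies among vit-1 to vit-5 make the split of fragments between them uncertain. The transfer protein gene dsc-4, which loads lipid onto yolk particles, had 0.68 (limma adjusted p = 7.5e-06), and 0.46 with quantile normalization, inside the fold limit. The oocyte's yolk receptor gene rme-2 had -0.37 (limma adjusted p = 0.0033), inside the fold limit, and missed the adjusted p without scaling (0.057) and with quantile normalization (0.12) in limma. With E. ulmoides none of the 6 was called in limma, or passed the adjusted p.

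**Figure D4:**
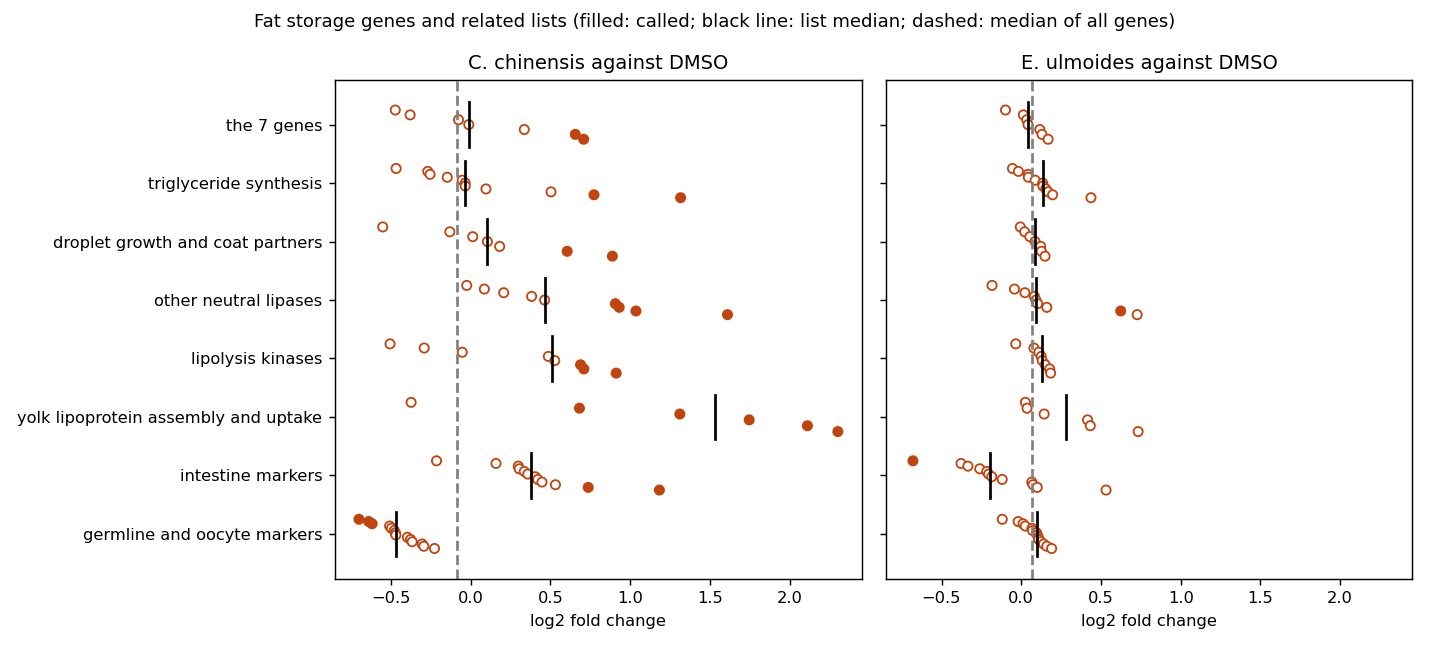
Fitted log2 fold changes against DMSO (horizontal axes) of the 7 genes, of 5 lists of related genes and of 2 lists of tissue markers, for C. chinensis (left) and E. ulmoides (right); each point is a gene tested, filled when called, black lines are list medians and dashed lines the median of all genes. With C. chinensis the 7 genes spread around a median of -0.01, the yolk list has a median of 1.53 and the germline markers one of -0.47.

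Tissue markers also differed between the groups. For comparison, 30.2% of all genes tested were higher and 37.2% lower with C. chinensis than with DMSO by the adjusted p alone. The shares called were 16.9% higher and 3.47% lower. All 14 germline and oocyte markers were lower with C. chinensis than with DMSO by the adjusted p (3 of them called), with a median log2 fold change of -0.47. Their summed level was 1964 to 2542 FPKM with C. chinensis, 2344 to 2770 FPKM with E. ulmoides and 2703 to 2795 FPKM with DMSO. Of 12 intestine markers tested 10 were higher and 1 lower with C. chinensis by the adjusted p (2 called, both higher), and the sum of the 14 on the list was 309 to 376 FPKM with C. chinensis, 216 to 232 FPKM with E. ulmoides and 252 to 289 FPKM with DMSO. The median of these 12 was 0.38 against DMSO with C. chinensis and -0.19 with E. ulmoides, where 1 was called lower. All 10 body wall muscle markers were higher with C. chinensis by the adjusted p (7 of them called, median 0.91), their sum being 300 to 441 FPKM with C. chinensis, 173 to 209 FPKM with E. ulmoides and 169 to 210 FPKM with DMSO. Of 5 hypodermis markers tested 3 were called higher and the other 2 were lower by the adjusted p (median 0.64), and of 9 neuron markers none was called while 6 were higher by the adjusted p in limma (median 0.43). The sum of the 12 hypodermis markers was 101 to 143 FPKM with C. chinensis, 84.5 to 95.4 FPKM with E. ulmoides and 91.0 to 104.3 FPKM with DMSO. That of the 9 neuron markers was 498 to 584 FPKM with C. chinensis, 357 to 408 FPKM with E. ulmoides and 375 to 400 FPKM with DMSO. No marker was at 0 in all libraries. The part of these marker shifts in the levels of the 7 genes was not tested.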

How the data were processed

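RNA of whole worms was sequenced as paired-end reads, which per the labels and methods were aligned with HISAT2 to WBcel235. The version of HISAT2, the counting tool and the annotation release are not given in the sources used here. The deposited values are FPKM, made by the authors from fragments per gene, gene length and library total. All 15 columns matched a sample's label. Of 46906 genes, 20220 were at 0 throughout. FPKM of piRNA genes, which are 21 nucleotides long, are multiples of 1 step per library, which gave the totals. One length per gene then made all 26686 genes above 0 whole fragments (tolerance 0.0001).

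A gene was kept where 5 or more libraries had an FPKM of 1 or more (13743). Scaling between libraries used trimmed means of M values without weights, leaving out 30% of M and 5% of A from either end. The log2(scaled FPKM + 0.5) of the 15 libraries was fitted with limma 3.58.1 in R 4.3.3 (empirical Bayes with trend, a mean per group, no block). Adjusted p-values cover all genes kept. The study tested counts, and its thresholds were taken over. Permutation tests were exact and two-sided. Tables were made with Python 3.11.15, pandas 2.3.3 and numpy 2.4.6, and positions came from Ensembl release 115. The scripts were tested on simulated data. In limma, precision rests on the spread within groups of 5, pooled over all 15 libraries and drawn towards that of genes of like level.

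Same-numbered libraries of different groups did not deviate together (15 pairs by replicate number, r -0.245 to 0.0612), so they were not paired. Related and marker lists held 113 genes, 112 of them in the table, and 1 is not used here. From each list, up to 4 called genes with the smallest p were named, with exceptions named for contrast after their values were seen; for each member the 3 genes of highest r were named. The members and lists were chosen with earlier results of these data known. Alternatives covered scaling, pseudocount (0.1 and 1), filter, libraries in the fit, blocks, voom, the Wilcoxon test, the fold limit and libraries left out.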

Additional observations from a re-analysis of the deposited data

Results flagged for a closer look

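One of the 21 sets of 5 libraries (7 genes in 3 groups) held a library far from the rest: dhs-3 in C. chinensis replicate 4, at 20.3 FPKM, while the next lowest library of that group had 25.97 FPKM. The gap was 0.874 of the group's range, above Dixon's limit of 0.71 for 5 values. Chance puts about 1 in 20 groups past this limit. That library is 1 of the 4 with over 60000000 fragments. The value lay above all dhs-3 values of the other groups, and the call of dhs-3 held without it, with a log2 fold change against DMSO of 0.75.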

How the results depend on the processing

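Both calls with C. chinensis against DMSO, dhs-3 and dgat-2, held in all 28 alternatives that gave them a value. The members called were 2 throughout (2 to 2 with single libraries left out), except 5 with no fold limit, and 0 with E. ulmoides throughout. Between the extracts they were 6 with no fold limit and 1 to 2 with single libraries left out, dgat-2 then running between 0.57 and 0.76.

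Signs turned only for changes that were not called. Against DMSO with C. chinensis, hosl-1 was 0.14 without scaling, 0.034 with median of ratios, 0.13 with a mean FPKM of at least 5, 0.0050 with only the 10 libraries of both groups, 0.045 without the libraries of over 60000000 fragments, and -0.076 to 0.058 with single libraries left out. For lid-1 it was 0.082 without scaling, 0.14 with quantile normalization and 0.076 with a mean of at least 5. With E. ulmoides, without scaling, plin-1 was -0.019, dhs-3 -0.11, atgl-1 -0.11, dgat-2 -0.13 and seip-1 -0.031. With median of ratios dhs-3 was -0.0056 and dgat-2 -0.027. With quantile normalization plin-1 was -0.054, dhs-3 -0.0067, atgl-1 -0.058 and dgat-2 -0.021. With no filter dhs-3 was -0.018, atgl-1 -0.012 and dgat-2 -0.039, and with a mean of at least 5 they were -0.052, -0.047 and -0.074. With only the 10 libraries they were -0.035, -0.029 and -0.057. Without the libraries of over 60000000 fragments atgl-1 was -0.038 and dgat-2 -0.19. With single libraries left out dhs-3 ran from -0.054 to 0.060, atgl-1 from -0.059 to 0.064 and dgat-2 from -0.12 to 0.083. Between the extracts lid-1 was 0.062 without scaling, and lid-1 0.084 and hosl-1 -0.15 with quantile normalization.

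Neither replicate block changed a call among the 7 genes. With the replicate block by replicate number dhs-3 stayed at 0.71 and dgat-2 at 0.66 with C. chinensis, and 84 genes were called in all with E. ulmoides. With the replicate block by code number (11 pairs, r -0.149 to 0.0388) dhs-3 was 0.74 and dgat-2 0.59 with C. chinensis, while with E. ulmoides dhs-3 was -0.012, atgl-1 -0.0040 and dgat-2 -0.18, and 1 gene was called in all.

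Over all genes, 2799 were called with C. chinensis, 168 with E. ulmoides and 3116 between the extracts. With a mean FPKM of at least 5 they were 1682, 28 and 1894, and with no fold limit 9251, 689 and 9232. With single libraries left out they ran from 2325 to 2997, 31 to 192 and 2454 to 3301. Quantile normalization gave 2014 between the extracts. Without scaling, 96.2% of the calls with C. chinensis against DMSO were higher, and with quantile normalization 65%, beside 83% here. Between the extracts 97.9% were higher without scaling and 77.8% with median of ratios, beside 58.1%. With E. ulmoides the count was 45 without scaling (44.4% of them higher, beside 91.1%), 91 with median of ratios, 41 with quantile normalization (78% higher), 6 with no filter, 103 with only the 10 libraries, 80 without the libraries of over 60000000 fragments and 0 with the Wilcoxon test (lowest adjusted p 0.089, 2817 genes at an unadjusted p under 0.05). Of the 5 pathway lists, checked in the same way after the data were seen, 64 of the values of named genes changed their side of the threshold and 992 did not, with no change of sign. The causes were not tested.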
